A study of Mus musculus with 4 samples.

Results

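*Ctsk*, the gene of the collagen-degrading protease cathepsin K, was examined together with 9 other genes of the osteoclast, the bone-resorbing cell, to ask whether low chromatin accessibility at *Ctsk* in TCKO cells was shared by the loci of other osteoclast genes. *Ctsk* was chosen from its measured values, because its locus held a low TCKO over WT ratio in the count table used here, so its own ratio is given as a description. The other members were *Acp5*, *Mmp9*, *Dcstamp*, *Ocstamp*, *Oscar*, *Calcr*, *Tnfrsf11a*, *Csf1r* and *Itgb3*, named for their known roles in the osteoclast. A locus was taken as every region of the table that overlapped the gene or the 10 kb on either side of it. These 10 loci held 98 of the 255864 regions of the table, between 4 and 21 each, and they were 10 of the 19356 protein-coding loci that held at least 1 region.

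Accessibility was measured by ATAC-seq, where transposase inserts sequencing tags into open DNA and the density of reads reports how open it is, in primary osteoblasts taken from the calvarial bone of C57BL/6 mice aged 3 days. WT cells came from wild-type mice, and TCKO cells from mice carrying Prx1-Cre together with Tet1fl/fl, Tet2fl/fl and Tet3fl/fl. The Prx1 promoter drives the recombinase in limb and skull mesenchyme, and the deleted genes encode the enzymes that oxidise 5-methylcytosine. The labels gave 2 samples per genotype, 4 in all, although a protocol text spoke of 3 repeats, and whether the WT mice carried floxed alleles or Cre was not given in the sources used here. The replicates of each genotype were merged into 1 column of the count table, so no spread between replicates could be computed, no difference could be set against one, and no p-value is given. All intervals below are 95% Wilson intervals, which cover counting error only and not the variation between animals.

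Osteoclasts form by fusion of precursors of the monocyte and macrophage lineage. The cytokine M-CSF, acting through CSF1R, keeps the precursors alive, and RANKL, made by osteoblasts and other mesenchymal cells, acts through RANK (the product of *Tnfrsf11a*) to switch on the osteoclast genes. The mature cell seals itself to bone through an integrin, acidifies the space beneath it and secretes cathepsin K to digest the collagen. *Ctsk* is also a known marker of mesenchymal cells of the periosteum, and osteoclasts, being of blood cell origin, are not cells in which Prx1-Cre is known to act. In a bulk sample, fewer cells of a type and lower accessibility per cell cannot be told apart.

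The reference sequences of 4 members are shown because their regions carry some of the lowest ratios and the highest one described below. All are from RefSeq for GRCm38, 5′ to 3′, and capitals mark matches to the searched motifs. The first is the 250 bases before the RefSeq start of *Ctsk* (chr3:95498960-95499209, plus strand), inside the region with the lowest ratio of that locus. The second is the middle of the neighbouring region in the *Ctsk* gene (chr3:95499780-95500079, plus strand), where the capitals are an NFAT match. The third lies in an intron of *Itgb3* (chr11:104611645-104611944, plus strand) and its capitals are an AP-1 and a homeobox match. The fourth lies in an intron of *Dcstamp* (chr15:39755488-39755787, plus strand), with an E-box and an NFAT match. The last lies in an intron of *Calcr* (chr6:3707960-3708202, minus strand), in the region with the highest ratio of all members, with an AP-1 and an NFAT match.
Ctsk promoter: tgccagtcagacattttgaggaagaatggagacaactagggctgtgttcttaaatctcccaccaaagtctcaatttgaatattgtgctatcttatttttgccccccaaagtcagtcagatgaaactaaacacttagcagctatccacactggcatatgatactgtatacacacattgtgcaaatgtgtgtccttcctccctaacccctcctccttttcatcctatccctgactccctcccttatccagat
Ctsk intron: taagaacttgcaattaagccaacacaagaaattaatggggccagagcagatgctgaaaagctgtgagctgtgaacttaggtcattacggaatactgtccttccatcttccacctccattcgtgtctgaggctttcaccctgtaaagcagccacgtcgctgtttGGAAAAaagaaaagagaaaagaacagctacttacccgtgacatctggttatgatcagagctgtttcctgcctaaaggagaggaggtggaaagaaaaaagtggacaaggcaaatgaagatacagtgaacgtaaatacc
Itgb3 intron: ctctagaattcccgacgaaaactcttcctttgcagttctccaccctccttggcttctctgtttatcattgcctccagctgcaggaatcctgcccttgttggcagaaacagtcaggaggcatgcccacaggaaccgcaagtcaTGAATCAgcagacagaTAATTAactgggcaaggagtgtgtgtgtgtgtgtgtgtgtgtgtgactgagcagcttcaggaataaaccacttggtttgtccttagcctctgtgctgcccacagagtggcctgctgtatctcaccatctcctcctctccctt
Dcstamp intron: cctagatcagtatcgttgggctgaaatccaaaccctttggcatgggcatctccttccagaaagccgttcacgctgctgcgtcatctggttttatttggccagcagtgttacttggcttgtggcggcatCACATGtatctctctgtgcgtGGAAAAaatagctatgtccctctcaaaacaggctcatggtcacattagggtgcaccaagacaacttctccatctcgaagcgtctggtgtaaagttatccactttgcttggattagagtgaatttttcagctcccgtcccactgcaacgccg
Calcr intron: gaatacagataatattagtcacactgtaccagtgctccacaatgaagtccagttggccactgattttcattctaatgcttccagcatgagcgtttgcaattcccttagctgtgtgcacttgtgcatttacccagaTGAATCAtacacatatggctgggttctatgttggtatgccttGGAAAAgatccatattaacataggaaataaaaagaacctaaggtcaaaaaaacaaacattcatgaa

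The table had 56898657 WT and 34608167 TCKO counts, so TCKO counts were multiplied by 1.64 before ratios were taken, and a ratio is log2 of TCKO over WT. The median ratio was 0.06 over all regions and -0.02 over all protein-coding loci. Without any scaling the latter was -0.74 and with depths recovered from the peak caller it was -0.63, so directions below are relative to the total count unless stated. The distance of a locus from the median of all loci is the same under any single factor, because all loci move alike. Before scaling, TCKO held fewer counts than WT at every locus named below except *Myod1*. Counts at the *Tet1*, *Tet2* and *Tet3* loci, which do not measure the deletion of an exon, were 6884, 2992 and 5789 in WT and 3697, 1543 and 3270 in TCKO, with ratios of -0.18, -0.24 and -0.11. The labelled cell type was checked on markers. All 10 osteoblast markers had a region within 1 kb of a transcript start, compared with 6 of 8 endothelial, 6 of 16 macrophage and 0 of 6 skeletal muscle markers and with 81.2% of all protein-coding loci. Among the macrophage markers *Ptprc* and *Itgam* had none and *Adgre1* had 36 WT counts at its start, but *Cd14* had 817, *Lyz2* 333, *Coro1a* 313, *Laptm5* 236 and *Cd68* 201, so accessible chromatin at starts of myeloid genes was present in the samples.

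The *Ctsk* locus (ENSMUSG00000028111, chromosome 3, 95499256 to 95509362, plus strand) had 1936 WT and 866 TCKO counts over 7 regions. This is a log2 ratio of -0.44 (95% interval -0.56 to -0.33), which lay 0.42 below the median of all loci, and 360 loci (1.86%) held a lower one. The low ratio came from the regions at the start of the gene and not from the rest of the locus. The 2 regions within 1 kb of the start together had 1379 WT and 460 TCKO counts, giving a log2 ratio of -0.87 (-1.02 to -0.71) or 1.82-fold more in WT. The 5 other regions together held 557 and 406 counts, a ratio of 0.26 (0.08 to 0.45), so the intervals of these parts did not overlap.

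The region over the *Ctsk* start (95498883 to 95499317) had 650 WT and 165 TCKO counts, 41.7% of WT after scaling, with a log2 ratio of -1.26 (-1.51 to -1.01). It contains the promoter sequence printed above. Among the 22827 regions of the table that lay within 1 kb of a protein-coding transcript start, 1.27% had a TCKO level at or under the 2-fold limit and 119 (0.521%) held a lower ratio than this one. Among the 14870 of them with at least 200 counts in WT, 27 (0.182%) did. These ranks are descriptions only, since *Ctsk* was chosen for its low ratio. The second also rests on a filter of WT counts, the genotype with more reads in this region. The peak caller put its highest summit there on a pileup of 62 reads in WT and 30 in TCKO, at 6.98-fold and 5.06-fold over the local background of each.

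The neighbouring region in the intron (95499523 to 95500336) had 729 WT and 295 TCKO counts, 66.5% of WT, with a log2 ratio of -0.59 (-0.78 to -0.39). Its highest summit had a pileup of 39 in WT and 21 in TCKO. Both start regions were therefore called as peaks in both genotypes, with lower signal in TCKO. The ratio of the first stayed between -1.97 and -1.21 under the 6 scalings tried and that of the second between -1.3 and -0.51.

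The remaining regions of the locus lay away from the gene. The most upstream (95494385 to 95494770), which is in the neighbouring gene *Arnt*, had 214 WT and 185 TCKO counts, with a log2 ratio of 0.51 (0.22 to 0.79). It is not clear from these counts which gene it belongs to. Of the 4 regions downstream, the one with most counts (95517513 to 95517836) held 182 and 103, a ratio of -0.10 (-0.45 to 0.24). The others held 47, 56 and 58 counts in WT and 39, 43 and 36 in TCKO, with ratios of 0.44, 0.33 and 0.03. All 4 intervals included 0, and 2 of these regions had no summit in TCKO.

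**Figure D1:**
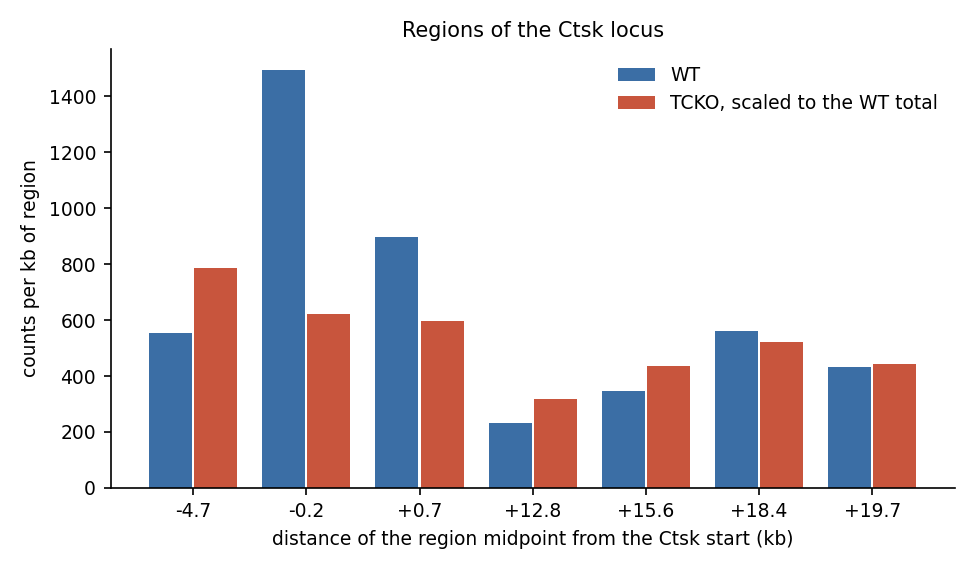
Counts per kb in the 7 regions of the Ctsk locus, placed by the distance of the region midpoint from the gene start in kb, in WT (blue bars) and in TCKO after scaling to the WT total (red bars). There is 1 merged value per genotype, so no error bar is drawn. The region at the start is the tallest bar in WT, from 650 counts, and has 271 scaled counts in TCKO. At the 4 downstream regions the ratios ran from -0.10 to 0.44, and all 4 intervals included 0.

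Across the 10 loci the ratios did not fall together. The log2 ratio was below 0 at 5 of 10 members, compared with 55.2% of all protein-coding loci, and the median over the members was -0.02, the same as over all loci. The interval lay wholly below 0 at 4 members and wholly above 0 at 3, compared with 34.2% and 26.1% of all loci. From lowest to highest the order was *Ctsk*, *Itgb3*, *Ocstamp*, *Oscar*, *Dcstamp*, *Csf1r*, *Mmp9*, *Calcr*, *Acp5* and *Tnfrsf11a*. The intervals of every neighbouring pair in this order overlapped, while those of *Ctsk* and of the 8 members above *Itgb3* did not. Without *Ctsk* the median was 0.06, and the 9 other loci summed to 25713 counts in WT and 15034 in TCKO, a ratio of -0.06 (-0.09 to -0.03). With no scaling or with the peak caller depths, all 10 ratios were below 0, but 5 were still below and 5 above the median of all loci.

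**Figure D2:**
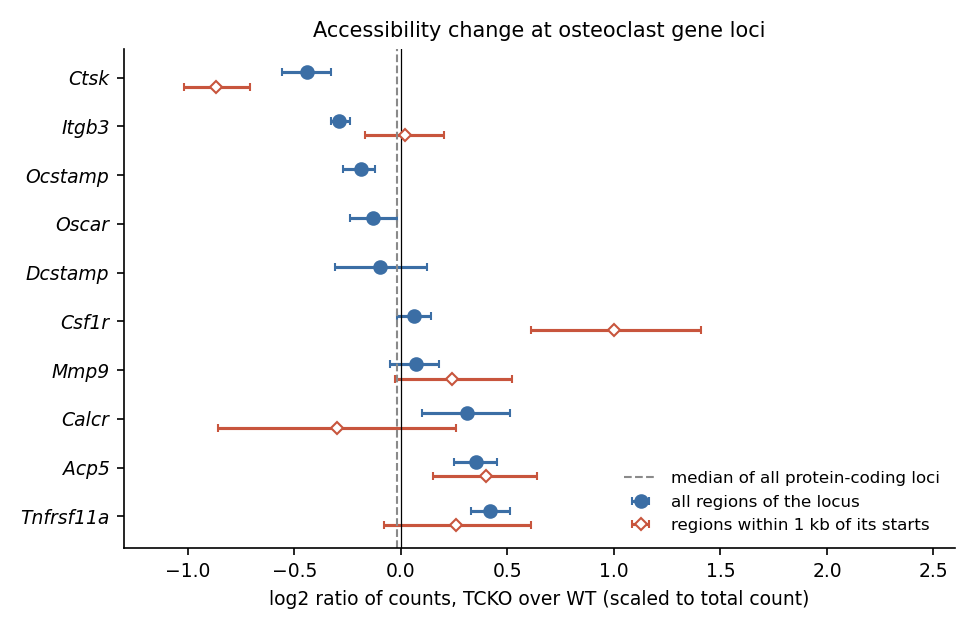
Log2 ratio of counts, TCKO over WT scaled to the total count, for each of the 10 loci (filled blue points) and for the regions within 1 kb of the starts of the gene (open red diamonds, for the 7 members that have one). Bars are 95% Wilson intervals of merged counts and the dashed line is the median of all protein-coding loci. Only at Ctsk did the interval of the start regions lie wholly below 0. The loci to the right of the line lie below 0 if the counts are not scaled or are scaled to the peak caller depths. The median of all loci then moves with them, so their side of it cannot change.

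Single regions were mixed as well. Of the 98 member regions, 3 were lower in TCKO by 2-fold or more and 3 higher by as much, compared with 4.51% and 12.3% of all regions. The interval lay wholly below 0 in 20 and wholly above 0 in 23, compared with 18.9% and 29.5% of all regions. The median ratio of member regions was 0.01, and 48 lay below 0. Their counts ran from 13 to 5463 in WT and from 3 to 2540 in TCKO. The interval lay wholly past 2-fold in 1 region in each direction, the *Ctsk* start region and an intronic region of *Calcr*. Just inside the 2-fold limit were regions of *Dcstamp* at -1.16 and *Acp5* at 1.15, and just outside it were regions of *Itgb3* at -0.94 and *Csf1r* at 1.0, which was under 2-fold before rounding. A summit was called in both genotypes in 63 of the 98 regions, in WT alone in 30 and in TCKO alone in 5, compared with 56.8%, 33.0% and 10.2% of all regions. WT had more counts within regions and more summits in all, 316241 compared with 227919. The depths recovered from the peak caller were 0.0202 reads per bp in WT and 0.0187 in TCKO. Whether depth or signal made the difference in summits was not tested.

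**Figure D3:**
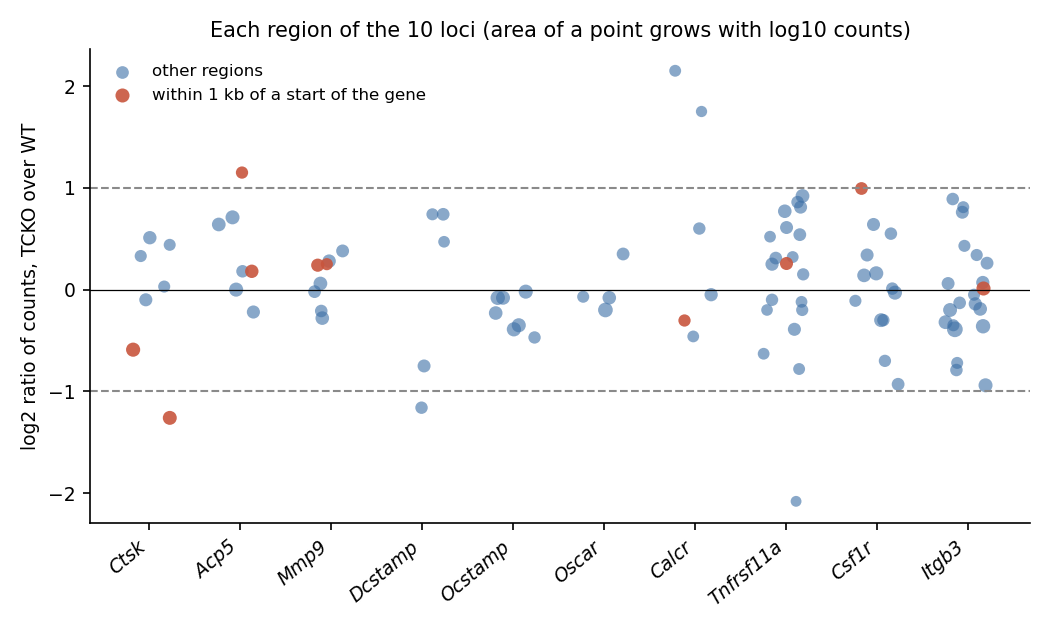
Log2 ratio of each of the 98 regions by locus, with regions within 1 kb of a start of the gene in red and other regions in blue, and with dashed lines at 2-fold in each direction. The area of a point grows with its counts. Both red points of Ctsk lie below 0, while the red points of 5 of the 6 other genes lie at or above 0. The lowest point, in Tnfrsf11a, rests on 24 and 3 counts.

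The receptors that start osteoclast formation did not share the low ratio. *Tnfrsf11a* (ENSMUSG00000026321, chromosome 1, 105780718 to 105847981) had 2141 WT and 1740 TCKO counts over 20 regions, giving a log2 ratio of 0.42 (0.33 to 0.51) that was -0.30 with no scaling, and 92.0% of all loci held a lower one. Its start region held 156 and 114 counts, a ratio of 0.26 (-0.08 to 0.61). Its region of highest count (105827680 to 105828395, over an exon) held 309 in WT and 355 in TCKO, a ratio of 0.92 (0.70 to 1.14), so TCKO held more reads there even before scaling. In 6 of the 20 regions the interval lay above 0 and in 3 below, compared with 29.5% and 18.9% of all regions. One region downstream of the gene (105856879 to 105857001) passed 2-fold lower, at -2.08 (-3.92 to -0.64), on 24 counts in WT and 3 in TCKO. It was a peak in WT only.

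*Csf1r* (ENSMUSG00000024621, chromosome 18, 61100598 to 61132149), the receptor for M-CSF, had 2957 WT and 1874 TCKO counts over 13 regions, giving a log2 ratio of 0.06 (-0.02 to 0.14). At the region over its start the ratio was 1.0 (0.61 to 1.41), on 90 counts in WT and 110 in TCKO, the highest of the 7 members when their start regions are summed. In the intron that follows, the region with most counts (61106776 to 61107270) held 618 and 421 counts, a ratio of 0.16 (-0.02 to 0.34). The start region thus differed from the intron beside it, since their intervals did not overlap, but it held few reads.

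*Oscar* (ENSMUSG00000054594, chromosome 7, 3609813 to 3616157), a receptor that costimulates osteoclast formation, had 1837 WT and 1021 TCKO counts over 4 regions, giving a log2 ratio of -0.13 (-0.24 to -0.02). Most of these reads, 1346 and 714, lay in 1 region (3617015 to 3617947) that covers the start of the neighbouring gene *Ndufa3*, at -0.20 (-0.33 to -0.07). Without it the ratio of *Oscar* was 0.04 (-0.17 to 0.25). No region of its own lay within 1 kb of its start.

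*Calcr* (ENSMUSG00000023964, chromosome 6, 3685680 to 3764714) encodes the receptor through which calcitonin halts resorption. It held the fewest WT reads of the 10 loci, with 448 counts in WT and 337 in TCKO over 6 regions. Its log2 ratio was 0.31 (0.10 to 0.51), or -0.41 with no scaling. Its start region held 77 and 38 counts, a ratio of -0.30 (-0.86 to 0.26), and its region with most counts (3741232 to 3741624) held 221 and 130, a ratio of -0.05 (-0.36 to 0.26). These neither differed from 0 nor from each other beyond counting error. The intronic region printed above (3707960 to 3708202) had 20 WT and 56 TCKO counts, a ratio of 2.15 (1.47 to 2.93). A region over an exon (3722860 to 3722975) held 13 and 28, a ratio of 1.75 (0.89 to 2.76). Both were peaks in TCKO alone, with pileups of 12 and 10 reads.

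The genes of cell fusion were mixed. *Dcstamp* (ENSMUSG00000022303, chromosome 15, 39745930 to 39760938), a membrane protein needed for precursors to fuse, had 464 WT and 264 TCKO counts over 5 regions, giving a log2 ratio of -0.10 (-0.31 to 0.12). It had no region within 1 kb of its start. The nearest, the intronic region printed above (39755480 to 39755795), had 108 WT and 29 TCKO counts, a ratio of -1.16 (-1.77 to -0.59), and was a peak in WT only. The region with most counts (39770881 to 39771196) lies in the neighbouring gene *Dpys* and held 186 and 67, a ratio of -0.75 (-1.16 to -0.35). The 3 remaining regions held ratios between 0.47 and 0.74, so the locus joined regions of opposite direction.

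*Ocstamp* (ENSMUSG00000027670, chromosome 2, 165393760 to 165400405), the partner of DC-STAMP in fusion, had 3926 WT and 2089 TCKO counts over 7 regions, giving a log2 ratio of -0.19 (-0.27 to -0.12). All 7 regions lay below 0, between -0.47 and -0.02, and the interval lay wholly below 0 in 2, compared with 18.9% of all regions. Downstream of the gene, the region with most counts (165391645 to 165392462) held 910 and 522, a ratio of -0.08 (-0.24 to 0.07). The region nearest its start (165402016 to 165402344) held 354 and 183, a ratio of -0.23 (-0.49 to 0.02). The 2 with the interval below 0 were a region over an exon of the gene and an upstream one that overlaps *Slc13a3*. The first (165397043 to 165397898) held 802 and 373 counts, a ratio of -0.39 (-0.56 to -0.21). The second (165405368 to 165405710) held 634 and 303, a ratio of -0.35 (-0.55 to -0.15). In the others the interval included 0, and 3 of 7 regions also belong to neighbouring genes.

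The secreted enzymes of resorption other than cathepsin K had ratios above 0 or near it. *Acp5* (ENSMUSG00000001348, chromosome 9, 22126727 to 22135711), which encodes tartrate-resistant acid phosphatase, the histochemical marker of osteoclasts, held 1934 counts in WT, close to the 1936 of *Ctsk*, and 1498 in TCKO over 7 regions. Its log2 ratio was 0.35 (0.25 to 0.45), or -0.37 with no scaling, and 89.8% of all loci held a lower one. The 2 regions at its starts together held 297 and 238 counts, a ratio of 0.40 (0.15 to 0.64). One of them, upstream of the first start (22136134 to 22136251), had 49 WT and 67 TCKO counts, a ratio of 1.15 (0.64 to 1.70), and was a peak in TCKO alone. The region with most counts (22116739 to 22117425), which covers the start of *Elof1*, held 601 and 366, a ratio of 0.00 (-0.19 to 0.19). *Ctsk* and *Acp5*, close in WT at 788 and 796 counts per kb of region, stood at 579 and 1014 scaled counts per kb in TCKO.

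*Mmp9* (ENSMUSG00000017737, chromosome 2, 164940780 to 164955850), a gelatinase, had 1577 WT and 1005 TCKO counts over 8 regions, giving a log2 ratio of 0.07 (-0.05 to 0.18). The region nearest its first start (164940568 to 164940689) held 58 and 42, a ratio of 0.25 (-0.32 to 0.82). The region with most counts (164953194 to 164953582) held 379 and 240, a ratio of 0.06 (-0.17 to 0.29). No region of *Mmp9* lay outside -0.28 to 0.38.

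Adhesion to bone is mediated by the vitronectin receptor, whose beta subunit is encoded by *Itgb3* (ENSMUSG00000020689, chromosome 11, 104608000 to 104670476). This locus was the nearest to *Ctsk*, with 10429 counts in WT and 5206 in TCKO over 21 regions and a log2 ratio of -0.29 (-0.33 to -0.24), and 6.47% of all loci held a lower one. Unlike at *Ctsk*, the start region was level, with 598 counts in WT and 368 in TCKO and a ratio of 0.02 (-0.17 to 0.20). The low ratio came from intronic regions. The region with most counts of all 98 (104624692 to 104626594) held 5463 in WT and 2540 in TCKO, a ratio of -0.39 (-0.46 to -0.32). The lowest, printed above (104611603 to 104611985), held 659 and 209, a ratio of -0.94 (-1.16 to -0.72), with summit pileups of 57 and 32. It was named after its values were seen, as the largest difference at this locus. The interval lay below 0 in 6 of the 21 regions and above 0 in 3, compared with 18.9% and 29.5% of all regions.

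**Figure D4:**
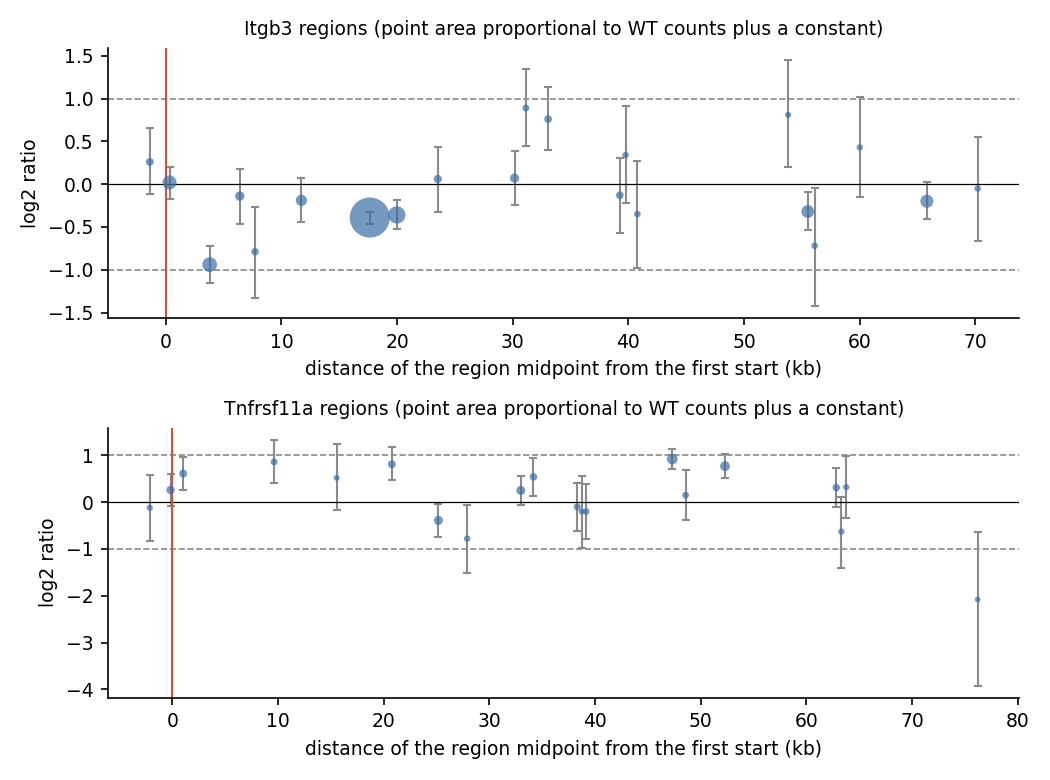
Log2 ratio of each region of Itgb3 (upper plot, 21 regions) and Tnfrsf11a (lower plot, 20 regions) against the distance of its midpoint from the first start in kb. Bars are 95% Wilson intervals, the area of a point grows with its WT counts, dashed lines mark 2-fold and the red line marks the start. The largest Itgb3 point is the region with 5463 counts in WT, at -0.39, and the Tnfrsf11a regions with most counts lie at 0.92 and 0.77.

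Other genes of the osteoclast lay on both sides of 0. Of 24 such genes, which cover acid secretion, transcription factors, signalling adaptors and adhesion, 23 had regions. The log2 ratio lay below 0 at 12 of them, the interval lay wholly below 0 at 8 and wholly above 0 at 11, and the median was -0.01. Against 55.2%, 34.2% and 26.1% of all loci, the count above 0 was the one farther from the background, on the side opposite to *Ctsk*. The summed ratio of the list was below 0, at -0.08 (-0.10 to -0.07), compared with -0.04 over all loci. Start regions lay below 0 at 14 of 20 genes, with a median of -0.11, compared with 10575 of 15708 of all loci and -0.09. Among loci with at least 200 WT counts the lowest were *Jdp2*, a transcription factor of osteoclast formation, at -0.35 (-0.42 to -0.28), *Clcn7*, the chloride transporter of the resorbing membrane, at -0.29 (-0.46 to -0.12), and *Itgav*, which encodes the integrin alpha subunit that pairs with the product of *Itgb3*, at -0.22 (-0.27 to -0.17). The highest were *Tfec*, a relative of MITF, at 0.65 (0.51 to 0.79), *Trem2*, an activating receptor, at 0.40 (0.26 to 0.54), and *Car2*, the carbonic anhydrase that supplies protons, at 0.36 (0.22 to 0.50). No locus of any list examined reached 2-fold in either direction, which few of all protein-coding loci did, 0.160% lower and 2.06% higher.

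The other cathepsin genes did not stand with *Ctsk*. Of 13 cathepsin genes, 6 lay below 0, compared with 55.2% of all loci, the median was 0.00 and the range -0.22 to 0.26. The lowest were *Ctsd* at -0.22, *Ctsz* at -0.20 and *Ctsc* at -0.19, and the highest *Ctsg* at 0.26, *Ctsb* at 0.25 and *Ctse* at 0.20. Cathepsins B and D are lysosomal proteases of many cell types.

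Lists of cell type markers were set beside these values. Of 16 macrophage markers 8 lay below 0, with a median of -0.02 and a range of -0.26 to 0.58. The interval lay below 0 at 3 and above 0 at 4. Over all loci these shares were 55.2%, 34.2% and 26.1%. Among these markers *Ptprc*, *Aif1* and *Cd68* were the lowest with at least 200 WT counts, at -0.26, -0.16 and -0.08, and the complement genes *C1qa*, *C1qc* and *C1qb* the highest, at 0.55, 0.30 and 0.25. The windows of the complement genes overlap and share reads, so their ratios are not separate values. A sum over loci counts the shared regions more than once. Summed over the regions at their starts, the macrophage markers had 1936 WT counts and 1449 TCKO counts, or 2382 after scaling. Of these WT counts 817 were at *Cd14*, and over all regions of the 16 loci the summed ratio was 0.00 (-0.03 to 0.02). The part of myeloid cells in the ratio of *Ctsk* was not tested.

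Markers of the mesenchymal cells themselves lay near the median of all loci. Of 10 osteoblast markers 6 lay below 0, with a median of -0.04, from *Alpl* at -0.38, *Sp7* at -0.22 and *Col1a2* at -0.14 to *Ibsp* at 0.10 and *Spp1* at 0.50. Of 8 periosteal and mesenchymal markers 4 lay below 0, with a median of -0.03, from *Acta2* at -0.33, *Pdgfrb* at -0.14 and *Pdgfra* at -0.07 to *Cxcl12* at 0.02, *Lepr* at 0.04 and *Prrx1* at 0.26. Among 8 endothelial markers the interval lay above 0 at 7, compared with 26.1% of all loci, with a median of 0.31 but a summed ratio of 0.03 (0.00 to 0.06), from *Erg* at -0.38 to *Emcn* at 0.68, *Kdr* at 0.48 and *Cdh5* at 0.38. *Egfl7* and *Pecam1* lay between, at 0.17 and 0.22. The 6 skeletal muscle markers had a median of 0.11, from *Myog* at -0.01, *Myh3* at 0.00 and *Myf5* at 0.08 to *Pax7* at 0.15, *Ckm* at 0.28 and *Myod1* at 0.86. *Ctsk*, at -0.44, was lower than every locus of these lists, but it had been chosen for its low ratio.

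**Figure D5:**
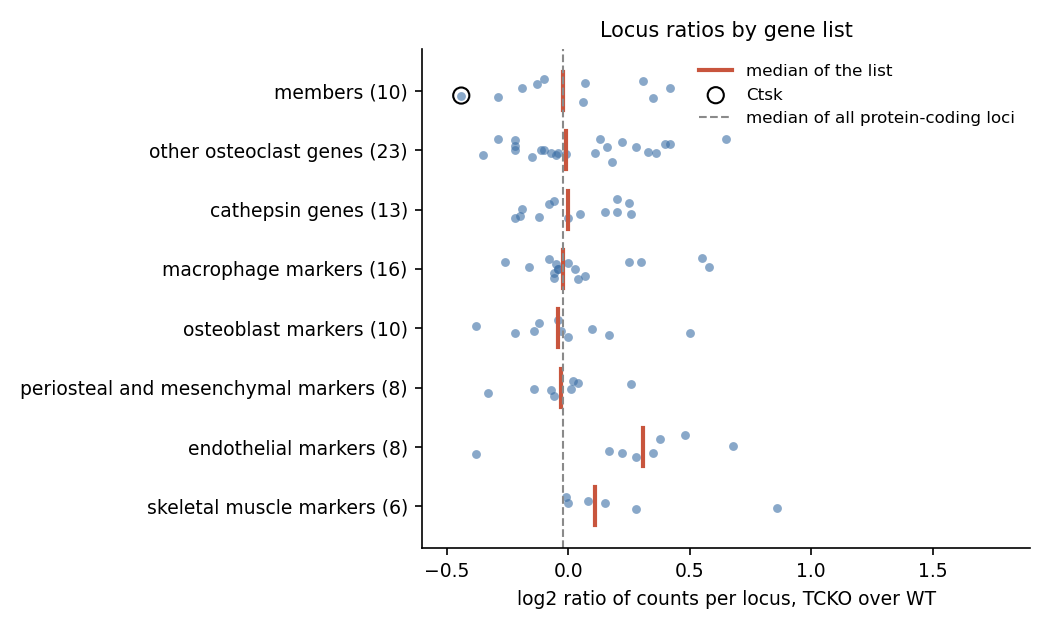
Log2 ratio of each locus, TCKO over WT scaled to the total count, by gene list, with the number of loci in brackets, the median of each list in red and the median of all protein-coding loci as a dashed line. Points are spread vertically to be seen. Ctsk, circled at -0.44, is the lowest point of all lists, but it was chosen for its low ratio. Of the 8 endothelial points, 7 lie right of 0 after scaling, while without scaling none does.

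The sequences of member regions were compared with those of all regions for features that the choice of members did not use. Since TET enzymes act on methylated CpG, the density of CpG was counted first. The median was 1.55 CpG per 100 bp in member regions, compared with 1.02 in all regions, and member regions were wider, with a median of 293 bp compared with 243 bp. The *Ctsk* start region held 7 CpG (1.61 per 100 bp), none of them in the 250 bases printed above, and the intronic region beside it 16 (1.97 per 100 bp). The median was 1.60 per 100 bp in the 20 member regions with the interval below 0 and 1.14 in the 23 with the interval above 0. The *Dcstamp* intron region was denser, with 11 CpG (3.48 per 100 bp), and the *Calcr* intron region held 1. CpG density was not computed for all regions by direction, so the medians by direction have no background.

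Motifs of factors known in osteoclasts or osteoblasts were searched on both strands as exact letters, in windows of 300 bases at the middle of each region. A match is a description of letters and not a bound site. Runt (TGTGGT) was found in 33 of 98 member windows (33.7%) and in 29.1% of all, and NFAT (GGAAAA) in 25.5% and 24.7%. For AP-1 (TGANTCA) the shares were 28.6% and 28.3%, for TEAD (GGAATG) 20.4% and 22.1%, and for the MITF E-box (CACATG or CACGTG) 25.5% and 28.7%. The shares were thus close in members and in all regions. PU.1 (GAGGAAGT) was found in 4 member windows (4.08%) and in 2.65% of all, and the homeobox motif (TAATTA) in 1 (1.02%), the *Itgb3* intron printed above, and in 4.46% of all. By direction, AP-1 was found in 10 of the 23 windows with the interval above 0 (43.5%) and in 5 of the 20 with the interval below 0 (25%), and Runt in 39.1% and 45.0%. All regions were not split by direction, so whether these shares are particular to the members is not known.

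The 250 bases of *Ctsk* promoter printed above held none of these motifs, but the window of 300 bases at the middle of that start region held an NFAT match that is not within them. Among 32851 promoters of 250 bases in the RefSeq table, Runt was found in 14.0%, AP-1 in 6.75%, TEAD in 12.6%, the E-box in 17.6%, PU.1 in 2.44%, NFAT in 20.4% and the homeobox motif in 4.84%. The NFAT match in the *Ctsk* intron window lay at bases 164 to 169. In the *Itgb3* intron the AP-1 match lay at bases 143 to 149 and the homeobox match at bases 159 to 164. In the *Dcstamp* intron the E-box lay at bases 129 to 134 and the NFAT match at 150 to 155, and in the *Calcr* intron the AP-1 match lay at bases 136 to 142 and the NFAT match at 178 to 183. NFAT letters thus stood in windows of low and of high ratio alike. Of the 10 members, 5 were in the promoter table.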

How the data were processed

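ATAC-seq of primary osteoblasts was analysed in WT and TCKO, with samples grouped by their labels. The authors aligned reads with STAR 2.7.0e to GRCm38, kept unique reads, pooled replicates by genotype and ran MACS2 on the pools. They deposited raw read counts per region, 1 column for each genotype, which the file headers and naming credit to bedtools multicov. Duplicate removal and a shift for the transposase are not given in the sources used here. The authors' deposited peak lists give a fold enrichment, a ratio to the local background, and the −log10 of the p-value of each summit, from which pileups were solved (whole, within 0.05 reads, at 100% of summits).

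The total within regions was 56898657 counts for WT and 34608167 for TCKO, and these counts limit the precision. After adding 1 to the WT count and to the scaled TCKO count, ratios were taken as log2, with 95% Wilson intervals of the TCKO share. Genes were those of GENCODE M21. Windows of neighbouring genes can overlap, as at *Ctsk* and *Ctss* or *Csf1r* and *Pdgfrb*, so a region can belong to more than 1 locus. The limit for calls was 2-fold, the one the study applied. No test could be run on merged columns. Members, lists, motifs and rules were chosen with earlier results of these data known. Named in the text were the members, all regions of *Ctsk*, for other members the region with most counts, that nearest the first start and any past 2-fold, and up to 3 lowest and highest loci per list with at least 200 WT counts, of which 1 locus is not reported here. Alternatives were TMM factors (edgeR 4.0.16), size factors (DESeq2 1.42.0, R 4.3.3), no scaling, peak caller depths, loess (statsmodels 0.14.6, span 0.3), other windows around the gene, filters, folds of 1.5 and 3 and other summaries of a locus. The lists were 24 other osteoclast genes, 13 cathepsins, and markers of macrophages, osteoblasts, periosteal and mesenchymal cells, endothelium and skeletal muscle. The steps were tested on simulated data. Software was Python 3.11.15 with pysam 0.24.0, numpy 2.4.6, scipy 1.17.1, pandas 2.3.3 and matplotlib 3.10.9.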

Additional observations from a re-analysis of the deposited data

How the results depend on the processing

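The *Ctsk* locus stayed below 0 in 14 of 15 settings, between -1.16 and 0.03. It was -1.16 with no scaling, -1.05 with peak caller depths, -0.87 over the gene body, over the gene with the 2 kb before it and within 2 kb of a start, -0.62 without regions of other genes, and 0.03 as the median of its region ratios, since 5 of its 7 regions lie away from the start. *Ocstamp* was below 0 in 15 of 15 settings, between -0.91 and -0.13, and *Itgb3* in 14 of 15. Over the gene body *Ocstamp* was -0.39 (-0.56 to -0.21). *Oscar* was below 0 in 12 of 14 settings. *Acp5*, *Mmp9*, *Calcr*, *Tnfrsf11a* and *Csf1r* were below 0 in 2 to 4 of 15. The median over members was -0.73 with no scaling and -0.63 with peak caller depths. Members below 0 numbered 10 under both of these, where 96.2% and 95.4% of all protein-coding loci lay below 0. They numbered 3 of the 9 with a region over the gene body, and 3 of 10 without regions of other genes, without the region of most counts, or by median of regions. Regions at least 2-fold lower numbered 5 with TMM or loess, 24 with no scaling, 14 with peak caller depths, 1 within 2 kb of a start, 12 at a fold of 1.5, 1 at a fold of 3 and 1 by interval. Of all 255864 regions, 14121 were as low with TMM, 17809 with loess, 65511 with no scaling and 50885 with peak caller depths. Regions at least 2-fold higher numbered 1 within 2 kb of a start, 8 within 25 kb of the gene, 18 at a fold of 1.5 and 1 by interval. Shares over all regions and loci were computed for the scalings only. The counts under other windows, filters, folds, summaries and the interval rule thus have no background, and whether they are high or low for this table is not known. Ratios above 0 turned negative with no scaling at *Acp5* (-0.37), *Calcr* (-0.41) and *Tnfrsf11a* (-0.30), and with peak caller depths (-0.26, -0.30 and -0.19), and so did *Mmp9* (-0.65 and -0.54) and *Csf1r* (-0.66 and -0.55), whose intervals had included 0 and which TMM put at -0.01 and -0.02. Within 2 kb of a start *Calcr* was -0.30 and *Itgb3* 0.06, and *Oscar* was 0.04 and *Dcstamp* 0.22 without regions of other genes or without the largest. *Dcstamp*, below 0 in 8 of 14 settings, was also 0.09 over the gene body and 0.47 as the median of its regions. The cause was not tested. No paired analysis was possible because replicates are pooled in the 1 deposited column per genotype, and for the same reason none was left out in turn.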
